A study of Homo sapiens with 8 samples.

Results

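The genes examined here are the immediate early genes outside the AP-1 family: the zinc finger factors EGR1, EGR2, EGR3 and KLF6, the IER genes IER2, IER3 and IER5, the RNA decay factors ZFP36 and BTG2, and the phosphatase DUSP1. They were chosen by name, and all 10 were found by their Ensembl identifier; 26361 genes of the table had a count, and 9309 were tested, 7 of the members among them. All gene positions below are in GRCh37.

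Immediate early genes are transcribed within minutes of a growth factor, stress or adhesion signal, without the need for new protein synthesis. Their best known route runs from ERK and p38 kinases to the transcription factors SRF, ELK1 and CREB1, which sit on the promoters beforehand, and the transcripts are short-lived.

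RNA-seq was performed on J82, a human bladder cancer cell line grown in DMEM with serum, after its side population (SP) and non-side population (NSP) cells had been sorted. SP cells keep little of the DNA dye Hoechst, NSP cells retain it, and both had been through trypsin, a warm incubation with the dye and cooling on ice before the sort. There were 4 SP and 4 NSP libraries with replicate numbers 1 to 4 in each group, and no drug was given. Totals ranged from 1431823 to 1697218 counts among the SP libraries and from 1489033 to 2073526 among the NSP libraries, so that 1 count is worth 0.494 to 0.736 CPM. These are counts assigned to genes, a small part of the raw reads per sample that the authors state. The reason was not tested. CPM is the count scaled to library sizes after TMM normalization. In RNA from sorted cells in bulk, fewer cells with a transcript and less transcript per cell cannot be told apart. Of 13 urothelial markers, 3 had 0 counts in every library (UPK3A, KRT20 and TP63) and KRT5 had 1 count. KRT7, KRT18, UPK2, GATA3 and PPARG were detected in all 8 libraries, but GATA3 with only 1 to 8 and PPARG with 3 to 13 counts per library. Over the 8 libraries UPK1A had 1 count, EPCAM 3, UPK1B 13 and CDH1 24. The summed level of the list was 605 to 880 CPM in SP cells and 951 to 1267 CPM in NSP cells. KRT7 and KRT18 made up most of it. The difference lay mainly in KRT7, with means of 258 CPM in SP and 659 CPM in NSP cells. KRT18 had means of 404 and 435 CPM, and UPK2, at 20.7 and 17.8 CPM, went the other way. All 5 mesenchymal markers were detected, and their sum was 311 to 486 CPM in SP cells and 535 to 908 CPM in NSP cells. Of 5 leukocyte and endothelial markers with a row in the table, PTPRC and CD3E had 0 counts, and VWF and CDH5 had 1 count each. CD68 was detected in every library, with 8 to 18 counts in SP and 8 to 20 in NSP libraries. The list summed to 4.33 to 12.97 CPM in SP and 5.53 to 10.6 CPM in NSP libraries, nearly all of it CD68. The part of these marker differences in the results below was not tested.

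The counts carry a limit that touches every member. The library kit marks the strand of the transcript, and the strand setting used for counting is not given in the sources used here. Protein-coding genes held 55.5% to 61.9% of the counts of a library. Over the whole table, 595 lncRNAs that lie opposite a coding gene, with its exons covering at least 50% of theirs, were compared with that gene where both together had at least 100 counts. The lncRNA had more counts per kb in 525 of them (88.2%, and 86.2% to 88.7% in single libraries), with a median ratio of 36.7. The counts of a member may therefore hold only the minor share of its reads that fell on the strand counted, also where no gene is annotated across it. Levels, differences and counts of 0 below describe the deposited counts of a gene and not, with certainty, the amount of its transcript.

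The promoters of 4 of these genes are shown because they carry, or lack, the sequence elements that the pathway is known for. The sequences are the 250 bases before the RefSeq start site in GRCh38.p14, read in the direction of the gene: EGR1 at chr5:138465229-138465478 on the plus strand, EGR2 at chr10:62816367-62816616 on the minus strand, DUSP1 at chr5:172771196-172771445 on the minus strand and KLF6 at chr10:3785210-3785459 on the minus strand. Capitals mark the CArG box, which SRF binds, and the letters TGACGT on either strand in EGR1 and EGR2, the letters TGACGTCA and TGACGT in DUSP1, and the letters GGGCGG in KLF6. TGACGTCA is the site of CREB and ATF factors, TGACGT is contained in it, and GGGCGG is the site of SP and KLF factors.

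EGR1: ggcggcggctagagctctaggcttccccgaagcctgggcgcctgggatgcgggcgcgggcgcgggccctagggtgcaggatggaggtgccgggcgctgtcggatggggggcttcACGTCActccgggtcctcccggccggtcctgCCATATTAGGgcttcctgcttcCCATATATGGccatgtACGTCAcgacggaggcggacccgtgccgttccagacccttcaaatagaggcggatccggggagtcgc

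EGR2: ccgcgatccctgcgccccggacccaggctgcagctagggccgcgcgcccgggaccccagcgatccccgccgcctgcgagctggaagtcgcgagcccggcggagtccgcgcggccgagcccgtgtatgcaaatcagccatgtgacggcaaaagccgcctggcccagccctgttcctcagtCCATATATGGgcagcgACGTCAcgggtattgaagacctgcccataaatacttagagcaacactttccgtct

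DUSP1: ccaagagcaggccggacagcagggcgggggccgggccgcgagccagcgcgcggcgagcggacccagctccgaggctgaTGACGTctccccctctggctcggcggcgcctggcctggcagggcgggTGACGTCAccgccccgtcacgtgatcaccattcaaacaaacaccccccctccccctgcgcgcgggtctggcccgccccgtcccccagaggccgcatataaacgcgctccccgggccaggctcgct

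KLF6: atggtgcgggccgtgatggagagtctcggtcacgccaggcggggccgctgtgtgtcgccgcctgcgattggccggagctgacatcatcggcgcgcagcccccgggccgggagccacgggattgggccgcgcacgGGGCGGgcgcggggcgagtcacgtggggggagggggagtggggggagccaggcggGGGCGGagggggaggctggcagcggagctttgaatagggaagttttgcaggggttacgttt

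The RefSeq table held 8 of the 10 members, with EGR3 and IER3 missing. A member was counted where any of its start sites matched, whereas the shares below are of single promoters. A CArG box stood in the promoters of EGR1 and EGR2 and in 1.16% of all 35116 promoters of this length. EGR1 had 2, at -105 to -96 and at -83 to -74 from the start. EGR2 had 1 at the start site shown here, the third of 3 in the table, at -71 to -62. The other 2 start sites of EGR2 had neither a CArG box nor TGACGT, and of its 3 sites only they had GGGCGG. The full site TGACGTCA was found in DUSP1, at -125 to -118, and in 1.65% of all promoters; the shorter TGACGT was found in EGR1, EGR2 and DUSP1 and in 7.1% of all promoters. Both strands were searched. TATAAA was found in DUSP1 and in 10.7% of all promoters. GGGCGG was found in 6 of the 8 members (BTG2, DUSP1, EGR2, IER2, KLF6 and ZFP36) and in 42.6% of all promoters. GCGTGGGCG, the site of the EGR factors themselves, was found in 0 of the 8 and in 0.72% of all promoters. A match describes the letters of this window and does not show that a factor binds there.

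The members had very different levels in the deposited counts. Levels of different genes are given as CPM per kb of annotated exon. IER3, a small stress-induced protein known for limiting apoptosis, was highest, with a mean of 143 CPM per kb in SP cells (115 to 168 over 4 libraries) and 88.5 in NSP cells (56.9 to 113). IER2, a nuclear immediate early protein, followed with 28.9 ± 4.67 in SP and 26.7 ± 5.31 CPM per kb in NSP cells (SD, n = 4 each), and its libraries did not reach those of IER3. IER5, which is known to act on the heat shock factor HSF1, had 18.0 ± 8.87 and 13.7 ± 2.77 CPM per kb in SP and NSP cells, and EGR1 had 14.0 ± 6.88 and 11.7 ± 5.69. DUSP1 had 16.9 ± 5.69 and 10.2 ± 5.04 CPM per kb. The libraries of these 3 genes overlapped each other, so their order is not set beyond the spread of the libraries, and those of IER5 reached those of IER2 in SP cells but not in NSP cells. KLF6 (means of 7.32 and 4.36 CPM per kb in SP and NSP cells) and ZFP36 (6.10 and 4.36) came next, and each overlapped the other and the gene above it in the order. EGR3, BTG2 and EGR2 had almost no counts, with at most 0.523 CPM per kb in any library.

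EGR2, EGR3 and BTG2 had too few counts for a test. EGR2, a factor of nerve myelination and T cell restraint, had 2 counts in all, 1 in SP replicate 3 and 1 in NSP replicate 3. EGR3 had 1, 2, 4 and 2 counts in SP replicates 1 to 4 and 0, 2, 3 and 1 in NSP replicates 1 to 4, on chromosome 8 of GRCh37 (22545172 to 22550993, minus strand). BTG2, an antiproliferative partner of the CCR4-NOT deadenylase and a target of p53, had 2 counts in SP replicate 1, 2 in NSP replicate 1 and 0 in the other 6 libraries. With these counts a difference between the groups was not detectable for these 3 genes, and whether they were transcribed cannot be read from them.

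Between SP and NSP cells, the 7 members that passed the filter on low counts all had a fitted log2 fold change above 0, from 0.12 to 0.74 with a median of 0.49, beside 51.8% above 0 and a median of 0.0148 over all 9309 genes tested. A call required both a Benjamini-Hochberg adjusted p below 0.05 and more than a 1.3-fold difference, and by edgeR (quasi-likelihood) 0 of the 7 were called, as by DESeq2. At an unadjusted p under 0.05, 3 of the 7 were higher (IER3, KLF6 and DUSP1) and 0 lower, beside 8.13% of all tested genes higher and 8.27% lower. Over all tested genes 1.63% were called higher and 2.03% lower in SP cells. The replicate numbers pair the libraries, as described in the processing, and when edgeR fitted that number as a block, IER3, KLF6 and DUSP1 were called higher, 3 of 7 beside 5.89% of all tested genes (7% were called lower). With the block and a pair of libraries left out, the number called was 4 without replicate 1, 3 without replicate 2, 2 without replicate 3 (IER3 and KLF6) and 1 without replicate 4 (IER3), and DESeq2 with the block called IER3 alone.

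**Figure D1:**
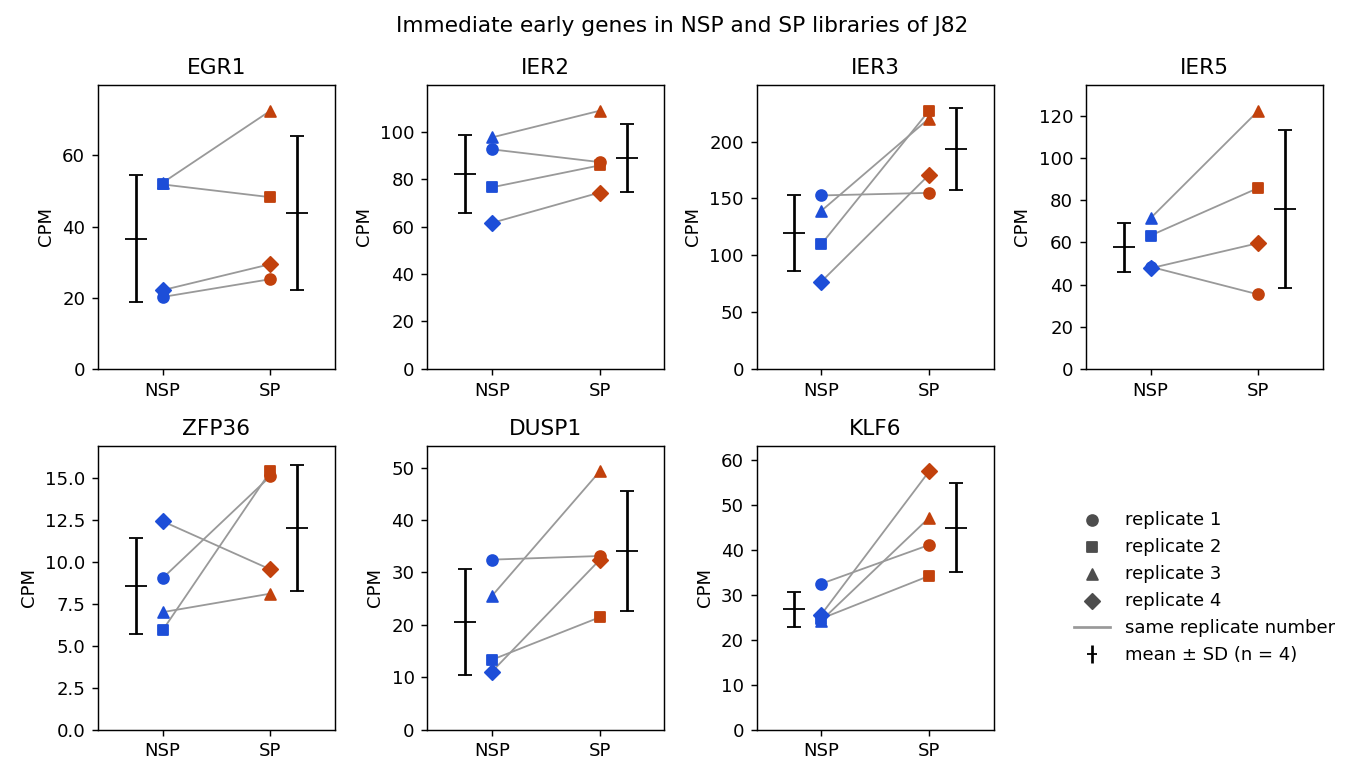
CPM of the 7 tested members in each NSP (blue) and SP (orange) library, with 1 panel per gene and an axis from 0; marker shapes give the replicate number, gray lines join libraries with the same number, and black bars are the mean ± SD of 4 libraries. All SP points lie above all NSP points for IER3 and KLF6 and the groups overlap for the other 5 genes.

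IER3 (ENSG00000137331.11) is a gene of 1 annotated exon block (GRCh37 chromosome 6, 30710976 to 30712325, minus strand). Its SP libraries 1 to 4 had 155, 227, 220 and 171 CPM and its NSP libraries 1 to 4 had 153, 109.6, 139 and 76.7 CPM. The lowest SP library was just above the highest NSP library, and both were replicate 1. The groups did not overlap, as for 4.78% of all tested genes with SP above NSP. The fold change was 1.62 (log2 fold change 0.69, standard error 0.20, 95% interval 0.26 to 1.12), with an adjusted p of 0.0751 from edgeR without the block and 6.1e-05 with it. An exact permutation test on log2(CPM + 1), two-sided, gave p = 0.0286, and groups of 4 cannot give a smaller one. Here and below this test splits the 8 libraries without regard to replicate number, so it leaves out the pairing. IER3 stayed called with the block when each replicate pair was left out, at log2 fold changes of 0.57 to 0.95.

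KLF6 (ENSG00000067082.10), a Krüppel-like zinc finger factor known as a tumor suppressor gene, has 4 annotated exon blocks on chromosome 10 (3818188 to 3827473, minus strand). It had 41.1, 34.2, 47.1 and 57.4 CPM in SP libraries 1 to 4 and 32.4, 24.7, 24.2 and 25.6 CPM in NSP libraries 1 to 4. The groups were separate, and NSP replicate 1 was the NSP library closest to the SP group. The fold change was 1.67 (log2 fold change 0.74, standard error 0.21, 95% interval 0.31 to 1.18), with an adjusted p of 0.0589 from edgeR without the block and 0.0033 with it, and p = 0.0286 from the exact permutation test. Its NSP counts varied as counting alone would have them vary (chi-square per degree of freedom 1.01), against 3.07 among the SP libraries. With the block and without replicate 4, KLF6 missed the threshold (0.58 on the log2 scale, adjusted p = 0.0901 from edgeR).

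DUSP1 (ENSG00000120129.5) encodes the phosphatase that switches off p38, JNK and ERK kinases and so closes the pathway that induces it. It lies on chromosome 5 (172195099 to 172198198, minus strand) with 4 annotated exon blocks. The SP libraries 1 to 4 had 33.1, 21.4, 49.3 and 32.4 CPM and the NSP libraries 1 to 4 had 32.4, 13.3, 25.5 and 11.1 CPM. The groups overlapped, because NSP replicates 1 and 3 were above SP replicate 2, but the SP library was the higher in each of the 4 pairs. The fold change was 1.66 (log2 fold change 0.73, standard error 0.32, 95% interval 0.05 to 1.41), with an adjusted p of 0.263 from edgeR without the block and 0.00964 with it (exact permutation test p = 0.171). With the block, DUSP1 was not called without replicate 3 (log2 fold change 0.64, adjusted p = 0.0656) or without replicate 4 (0.54, adjusted p = 0.162).

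**Figure D2:**
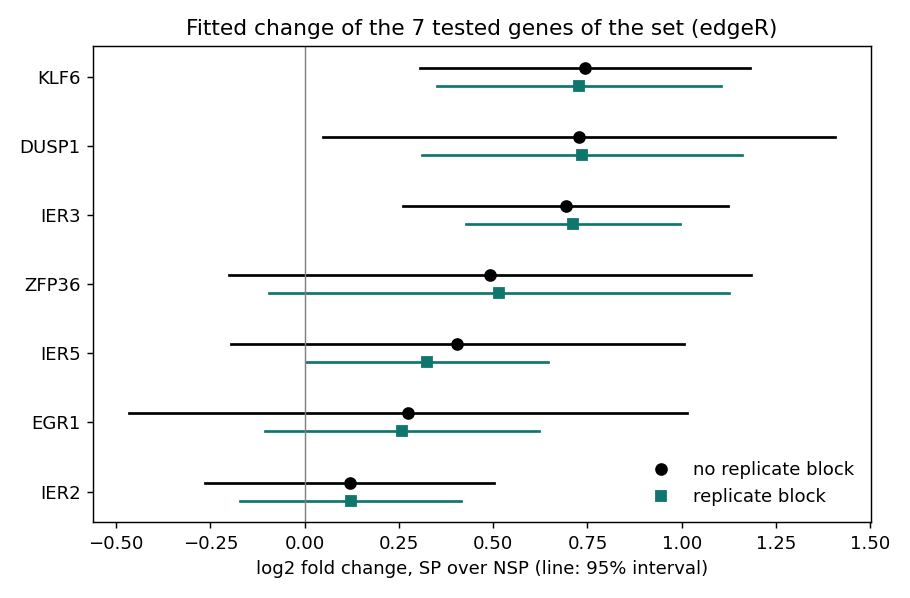
Log2 fold change of SP over NSP for the 7 tested members from edgeR without the replicate block (black circles) and with it (green squares); lines are 95% intervals and the gray line marks 0. The point estimates of both fits lie close together, and with the block the intervals of all 7 genes become narrower. The interval of DUSP1 goes from 0.05 to 1.41 down to 0.31 to 1.16. That of EGR1 goes from -0.47 to 1.01 down to -0.10 to 0.62. With the block the interval of IER5 is 0.003 to 0.645 (adjusted p = 0.197 from edgeR).

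EGR1 (ENSG00000120738.7; chromosome 5, 137801168 to 137804992, plus strand), the zinc finger factor that gives the EGR family its name, had 25.2, 48.3, 72.6 and 29.4 CPM in SP libraries 1 to 4 and 20.2, 51.9, 52.3 and 22.1 CPM in NSP libraries 1 to 4. In both groups replicates 2 and 3 were high and replicates 1 and 4 low, and this spread among replicates was larger than the difference between SP and NSP cells. The log2 fold change was 0.27 with a 95% interval of -0.47 to 1.01 (adjusted p = 0.765 from edgeR), and it was -0.09 without SP replicate 3. The interval covers a decrease as well as an increase, so these data do not set the direction for EGR1.

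IER2 (ENSG00000160888.6; chromosome 19, 13261225 to 13265725, plus strand) had 87.2, 85.8, 109 and 74.3 CPM in SP libraries 1 to 4 and 92.6, 76.5, 97.6 and 61.5 CPM in NSP libraries 1 to 4. Its log2 fold change of 0.12 was the smallest of the 7 (95% interval -0.26 to 0.50, adjusted p = 0.808 from edgeR), and the groups overlapped over most of their range. IER5 (ENSG00000162783.8; chromosome 1, 181057836 to 181062036, plus strand) had 35.3, 85.8, 122 and 59.6 CPM in SP libraries 1 to 4 and 48.4, 63.2, 71.4 and 47.7 CPM in NSP libraries 1 to 4. SP replicate 1 was the lowest and SP replicate 3 the highest of all 8 libraries, and the SP counts varied far more than the NSP counts (chi-square per degree of freedom 28.1 against 3.83). The log2 fold change of IER5 was 0.40 (95% interval -0.20 to 1.01, adjusted p = 0.522 from edgeR), 0.07 without SP replicate 3 and 0.64 without SP replicate 1. With the block IER5 was called only when replicate 1 was left out (log2 fold change 0.53, adjusted p = 0.0478).

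ZFP36 (ENSG00000128016.4; chromosome 19, 39897487 to 39900052, plus strand) encodes tristetraprolin, which binds AU-rich elements and directs the decay of cytokine and immediate early transcripts. It rested on 11 to 23 counts per library. The SP libraries 1 to 4 had 15.1, 15.4, 8.12 and 9.57 CPM and the NSP libraries 1 to 4 had 9.04, 5.93, 7.02 and 12.4 CPM. The SP library was higher in 3 of 4 pairs and lower in replicate 4, and the spread in each group was near that of counting alone (chi-square per degree of freedom 1.88 in SP and 1.58 in NSP libraries). ZFP36 had a log2 fold change of 0.49 (95% interval -0.20 to 1.18, adjusted p = 0.496 from edgeR).

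Replicate by replicate, the size of the difference varied more than its sign. The median log2 ratio of SP to NSP over the 7 members was 0.03 in replicate 1, 0.45 in replicate 2, 0.66 in replicate 3 and 0.40 in replicate 4, where the median over all tested genes was between 0.003 and 0.009. The SP library was the higher for 5, 6, 7 and 6 of the 7 members in replicates 1 to 4. In replicate 1, IER3 (0.02) and DUSP1 (0.03) were at the same level in SP and NSP cells, IER5 was lower in SP cells (-0.44), and ZFP36 was higher (0.68). In replicate 4, DUSP1 (1.47), IER3 (1.14) and KLF6 (1.14) had their largest ratios. All 4 pairs had SP above NSP for IER3, DUSP1 and KLF6, 3 of 7 beside 14.9% of all tested genes. The members share their libraries, so their ratios within a pair are not independent of each other.

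**Figure D3:**
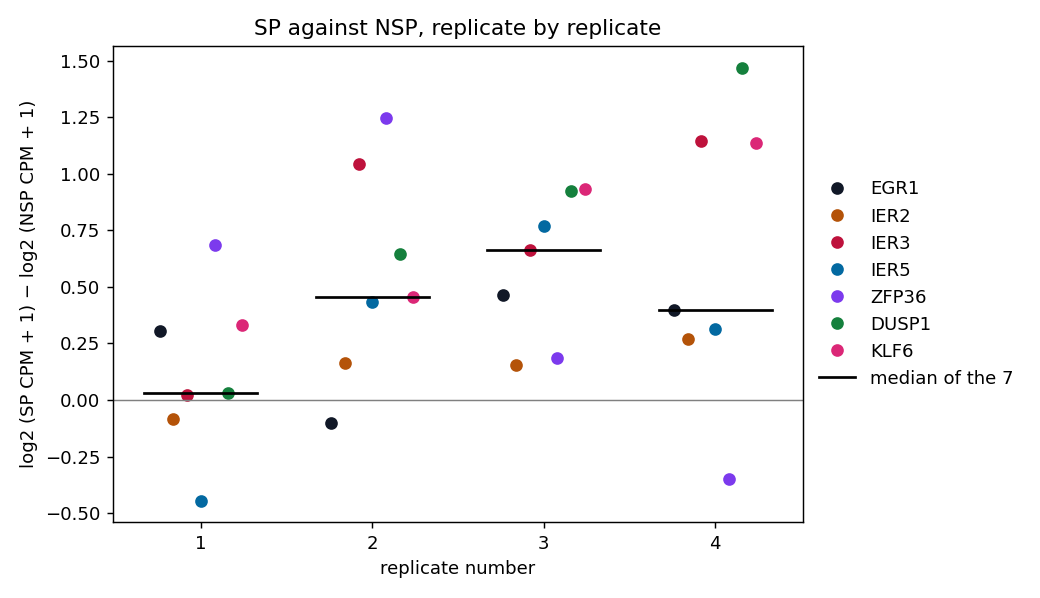
Log2 ratio of SP to NSP CPM (each plus 1) for the 7 tested members within each replicate number; black bars are the median of the 7 and the gray line marks equal levels. The points center near 0 in replicate 1 (median 0.03) and lie mostly above 0 in replicates 2 to 4.

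Across the 8 libraries the members did not form a single block. EGR1 and IER5 followed each other (Pearson r = 0.87 for log2(CPM + 1), and 0.86 for deviations from the group means). IER2, IER3 and DUSP1 also followed each other. Their r was 0.79 for IER2 and DUSP1, 0.78 for IER3 and DUSP1 and 0.73 for IER2 and IER3. For deviations from the group means these values were 0.81, 0.64 and 0.83. KLF6 had r = 0.73 with DUSP1 and 0.65 with IER3, and 0.54 and 0.03 for deviations from the group means. ZFP36 ran against EGR1 (r = -0.45) and against IER5 (r = -0.34), with -0.67 and -0.58 for deviations from the group means. For these deviations it was also negative with IER2 (-0.46), DUSP1 (-0.44), IER3 (-0.39) and KLF6 (-0.36). Its r over the 8 libraries was above 0 with IER3, DUSP1 and KLF6. These values are descriptions over 8 libraries that share preparation and depth. Among 4118 protein-coding candidates with a mean of at least 20 CPM, those whose pattern was most like the mean standardized profile of the 7 members included LZTR1 (r = 0.96), PLK2 (r = 0.96), GADD45GIP1 (r = 0.96) and MACROH2A1 (r = 0.95), over 8 libraries each.

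Overlap was searched only among genes with a row in the deposited counts, so genes annotated after gencode version 19 were not looked at. Within these, the exons of IER2, IER3 and EGR3 lie across exons of lncRNAs on the other strand, whereas those of the other 7 members do not. As in most of the pairs compared above, the lncRNA held more counts per kb than IER2 or IER3, so reads of a gene and of its partner cannot be told apart with certainty. IER3-AS1 (ENSG00000272273.1, an lncRNA of 882 bp of exon with 440 bp across the exon of IER3) had 17646 counts over the 8 libraries, 8.69 times the 2031 counts of IER3. It had 1136, 2046, 1376 and 1553 CPM in SP libraries 1 to 4 and 1323, 1068, 1618 and 816 CPM in NSP libraries 1 to 4. The groups overlapped and SP was the higher in 2 of 4 pairs, with a log2 fold change of 0.34 (95% interval -0.11 to 0.80, adjusted p = 0.468 from edgeR). The log2 ratio of IER3 to IER3-AS1 was -2.96 ± 0.26 in SP cells and -3.33 ± 0.18 in NSP cells (SD, n = 4 each), a difference of 0.36 that was positive in 4 of 4 pairs (exact two-sided permutation test p = 0.0857, 0.171 adjusted over the 2 partners compared). With the counts of IER3 and IER3-AS1 summed, a choice made after the values were seen, the log2 fold change of the sum was 0.38 (adjusted p = 0.408 from edgeR), and 0.39 with the block (adjusted p = 0.0463).

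ENSG00000267598, an lncRNA whose 946 bp of exon lie wholly across the exons of IER2, had 7235 counts against 1122 for IER2. Its SP level of 549 ± 64.3 CPM and NSP level of 554 ± 120 CPM (SD, n = 4 each) differed by less than either SD, with a log2 fold change of -0.01 (95% interval -0.38 to 0.35). The log2 ratio of IER2 to this lncRNA was -2.62 ± 0.23 in SP cells and -2.74 ± 0.07 in NSP cells, and the difference of 0.12 was within the spread (exact two-sided permutation test p = 0.343, 0.343 adjusted over the 2 partners). For EGR3, the partner ENSG00000253125 had 12 counts, and HCG20, which lies across 85 bp of IER3, had 1 count.

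**Figure D4:**
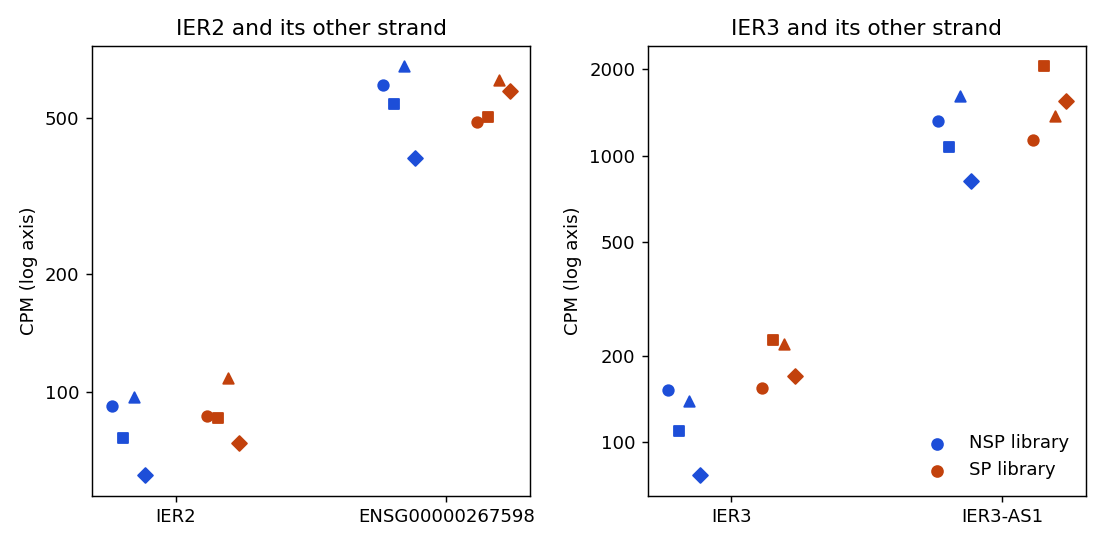
CPM on a log axis of IER2 and IER3 and of the lncRNA across their exons on the other strand, in each NSP (blue) and SP (orange) library, with marker shapes for replicates 1 (circle), 2 (square), 3 (triangle) and 4 (diamond). Both lncRNAs lie far above their protein-coding partners, and of the 4 genes only IER3 separates the groups.

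Other immediate early genes outside AP-1 and NR4A, from a list of 37 written with earlier results of these data known, gave 4 called higher and 0 called lower among the 28 tested without the block, beside 3.66% of all tested genes called in either direction. The 4 were TNFAIP3, an inhibitor of NF-κB signaling, PLK2, a stress-induced kinase, NFKBIA, the inhibitor that holds NF-κB in the cytoplasm, and MCL1, an antiapoptotic BCL2 family member. TNFAIP3 had 20.2, 43.6, 53.6 and 34.6 CPM in SP libraries 1 to 4 and 17.6, 7.41, 17.2 and 15.9 CPM in NSP libraries 1 to 4, with a log2 fold change of 1.41 (standard error 0.31, adjusted p = 0.0189 from edgeR). PLK2 rose by 1.27 on the log2 scale (adjusted p = 0.0196 from edgeR), NFKBIA by 1.06 (adjusted p = 0.0058) and MCL1 by 1.04 (adjusted p = 0.003). The groups did not overlap for 6 of the 28. These were the 4 called genes, PPP1R15A, which was higher in SP cells, and GADD45B, which was lower. Over all tested genes 4.78% had SP above NSP without overlap. Call and separation rest on the same libraries, so the separation is no further support. The exons of TNFAIP3 and MCL1 lie across exons of the other strand. MCL1 and NFKBIA were called with each single library left out. TNFAIP3 was not called without SP replicate 2, SP replicate 3 or NSP replicate 2, and PLK2 was not called without these 3 libraries, each in turn, or without NSP replicate 1. The median log2 fold change of the 28 was 0.43, and 18 were above 0. With the block 11 were called higher and 2 lower, beside 5.89% of all tested genes higher and 7% lower.

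Around the members, the ERK feedback and EGR co-repressor genes gave 0 called among the 6 tested of 11, with and without the block, and 0 at an unadjusted p under 0.05 in edgeR. Their 3 smallest p-values were for NAB1, a co-repressor of EGR factors (log2 fold change 0.41, adjusted p = 0.321), DUSP4, a nuclear ERK phosphatase (-0.43, adjusted p = 0.491), and SPRY2, a brake on receptor signaling (0.43, adjusted p = 0.571). Of the 16 upstream kinases and factors 12 were tested and 0 called without the block in edgeR, with 1 at an unadjusted p under 0.05. That gene was MRTFA, a partner of SRF, with a log2 fold change of 0.70 (adjusted p = 0.222 from edgeR without the block and 0.0181 with it). MAP2K2, a kinase that activates ERK, had a log2 fold change of 0.28 (adjusted p = 0.33) and RPS6KA4, a kinase downstream of p38 and ERK, had -0.30 (adjusted p = 0.49). The median of the 12 was -0.11. Beside these counts, 3.66% of all tested genes were called in either direction without the block and 12.9% with it. At an unadjusted p under 0.05 in edgeR without the block the share was 16.4%. Lists of 6 and 12 tested genes are too small to set 0 called apart from these shares.

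Among 12 relatives of the members 9 were tested, and KLF9, a Krüppel-like factor, was called, with SP libraries 1 to 4 at 131, 124, 72.6 and 113 CPM and NSP libraries 1 to 4 at 61.2, 60.3, 60.6 and 56.7 CPM (log2 fold change 0.88, standard error 0.19, adjusted p = 0.0145 from edgeR). KLF7 had a log2 fold change of 0.61 (adjusted p = 0.411) and BTG1, the abundant relative of BTG2, 0.42 (adjusted p = 0.325). In the AP-1 list of 8 tested genes ATF3 passed in edgeR (1.45 on the log2 scale, adjusted p = 0.0423) but not in DESeq2 (adjusted p = 0.0554), with groups that overlapped and SP below NSP in replicate 3, with FOSL2 at 0.61 (adjusted p = 0.127) and FOSL1 at -0.53 (adjusted p = 0.454), and with the block FOSL2 was called higher and FOSL1 lower. Among the 3 NR4A receptors NR4A3 passed (2.86 on the log2 scale, adjusted p = 0.0019 from edgeR), and NR4A1 (-0.54, adjusted p = 0.403) and NR4A2 (0.25, adjusted p = 0.842) were not. Beside these calls, 1.63% of all tested genes were called higher and 2.03% lower without the block, and 5.89% and 7% with it. Differences between these lists and the members were not tested.

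**Figure D5:**
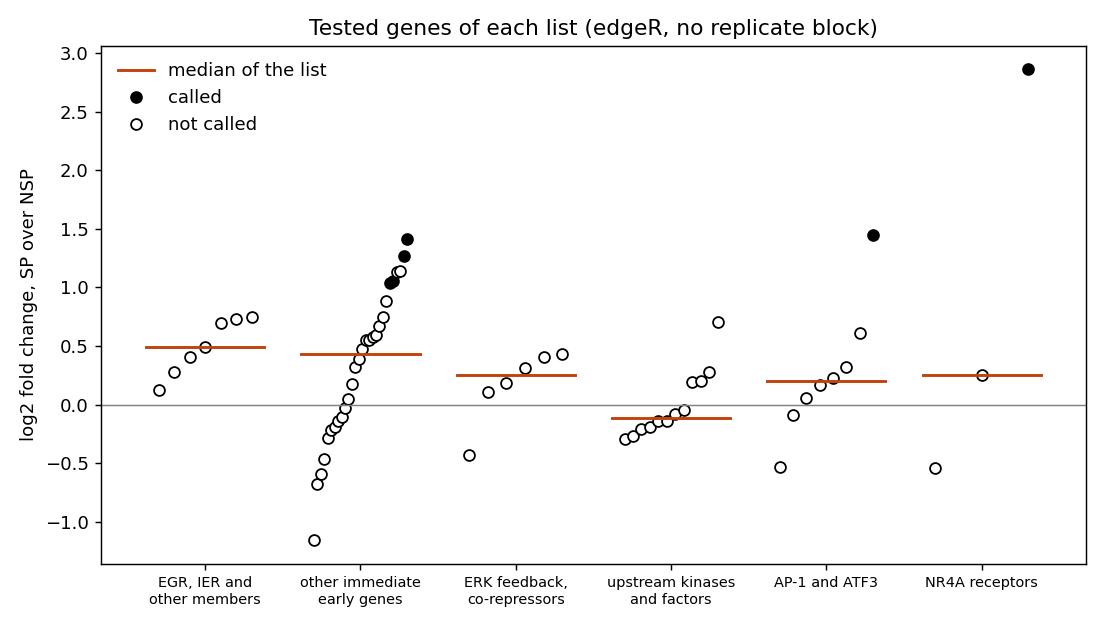
Fitted log2 fold change of SP over NSP for each tested gene of 6 lists, with 1 point per gene ordered by value, filled where the gene was called without the replicate block; orange bars are list medians. The 7 tested members lie between 0.12 and 0.74 with no filled point, and the filled points are 4 of the other immediate early genes, ATF3 and NR4A3.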

How the data were processed

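RNA-seq reads were single-end and 50 bp long. The authors aligned them to hg19 with STAR and deposited raw counts per gene of gencode version 19 from featureCounts, without normalization. Versions, strand setting and the treatment of reads with several matches are not given in the sources used here. Gene positions, exon lengths and exon overlap came from GENCODE 44 mapped to GRCh37, the build hg19 corresponds to, which held 55538 identifiers (96.1%).

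The deposited counts of 4 SP and 4 NSP libraries went into edgeR 4.0.16 under R 4.3.3, with TMM, glmQLFit and glmQLFTest, and filterByExpr (at least 10 counts, total of at least 15) left 9309 genes. Calls required a Benjamini-Hochberg adjusted p below 0.05 and more than a 1.3-fold difference, and 95% intervals use the test's degrees of freedom. DESeq2 1.42.0 was run at its defaults. A pseudocount of 1 CPM was used in ratios, exact tests and correlations. On simulated counts of 9309 genes for this comparison, edgeR recovered 74% of 2-fold and 100% of 4-fold changes, with 11 false calls among 185. No recovery is given for smaller changes, and the largest fold change of a member without the block was 1.67 (KLF6, SP over NSP). Recovery is also not given by gene level, so it need not hold for genes with few counts such as ZFP36. How often a difference of the size seen in the members would be called was therefore not tested. Figures used matplotlib 3.10.9 and sequences were read with Python 3.11.15.

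For replicates 1 to 4, the deviations from the group means correlated between the SP and the NSP library of that number at 0.38, 0.203, 0.322 and 0.321, so the numbers, which come from the titles and whose meaning the labels do not give, were taken to pair the libraries. Replicates of a group differed by more than sampling noise (chi-square per degree of freedom 5.61 to 13.5) and were counted singly; nothing says they were separate cultures, so p-values measure the spread between these libraries only. The members and lists were chosen with earlier results of these data known. Named genes are all members, the called genes of each list or, with fewer than 3 called, its 3 smallest p-values, the partners on the other strand and the 5 genes with the most similar pattern, of which 1 is not reported here; the marker genes were named as a check of the cell line. Alternatives were other normalizations, filters and tests, the replicate block, leaving out libraries or mitochondrial genes and, added after seeing the data, DESeq2 with the block, the block with a pair left out and sums with the partner.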

Additional observations from a re-analysis of the deposited data

Results flagged for a closer look

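Among 73 groups of 4 libraries of the genes named, 11 had a library far from the other 3. It is given below as its gap to the next library, as a share of the group's range. The cutoff of 0.829 would flag about 3.6 of 73 groups of independent, normally spread values. These groups share their libraries, and a group with 1 library above 0 has a gap of 1 whatever its value. The 11 can therefore not be read as an excess. For EGR2 in SP cells and in NSP cells (replicate 3 in both, gap 1), BTG2 in SP cells and in NSP cells (replicate 1 in both, gap 1) and HCG20 in NSP cells (replicate 3, gap 1), the value rests on 1 or 2 counts beside libraries at 0. KLF6 in NSP cells had its high library in replicate 1, at 32.4 CPM beside 25.6 in the next (gap 0.836). Replicate 1 was also the high library for NR4A3 in NSP cells (0.895) and the low one for NAB1 in NSP cells (0.84). The low library was replicate 2 for TNFAIP3 in NSP cells (0.837) and replicate 4 for MAP2K2 in SP cells (0.865), and the high one was replicate 3 for ATF3 in NSP cells (0.892).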

How the results depend on the processing

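The 7 members were refitted 144 times under the alternatives, of which 127 kept the direction and the call, 16 became called and 1 reversed. The reversed value was EGR1 without SP replicate 3, at -0.094, in a range of -0.094 to 0.49 with single libraries left out. The members called higher were 0 with each single library left out, 1 without a filter on low counts (IER3), 3 with the replicate block, 3 with the block and the partner counts summed, 1 by DESeq2 with the block, and 1 to 4 with the block and a replicate pair left out. The other immediate early genes called higher were 7 without a filter, 11 with the replicate block and 2 to 5 with single libraries left out, beside 4, and those called lower were 2 with the block, beside 0. The upstream genes called higher were 1 with the block, beside 0. The cause of these changes was not tested. Over all genes, the calls were 152 higher and 189 lower without the block, 548 and 652 with it, 303 and 381 without a filter, 69 and 89 without NSP replicate 2, and 91 and 110 without SP replicate 2. The block changed no other call of a member. Low counts limit EGR2, EGR3, BTG2 and ZFP36.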
